A study of Mus musculus with 24 samples.

Results

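Trp63, Bcl11b, Bcl11a, Sox9, Sox10, Tbx3, Tbx2 and Egr2 are 8 transcription factor genes that are associated with basal or stem cells of epithelia. They were followed through sorted mammary cells of tumours and normal glands. They were chosen by name, with earlier results of these data known. All 29 probe sets annotated to these symbols alone were taken, out of 18193 genes on the array. Of these probe sets 22 passed the filter on low values (log2 signal over 2.83 in at least 3 of 24 arrays), and all 8 genes kept at least 1. Each gene is represented by its kept probe set of highest mean signal, and the others are described beside it.

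The arrays came from C57BL6/J mice. The tumour groups were mammary adenocarcinomas A to E of Apc+/1572T mice, which carry 1 truncating germline allele of Apc, a negative regulator of Wnt signalling. The normal groups were mammary glands of Apc+/+ mice, taken as 3 pools, F to H. From each tumour and each pool the same number of cells was sorted from each of 3 populations, which gave 5 tumour and 3 normal arrays of each. Lin- cells had been depleted of cells with lineage markers, and from these the Lin-CD29+CD24+ and Lin-CD29hiCD24+ gates were sorted, written CD29+CD24+ and CD29hiCD24+ here. CD29 is integrin beta-1 and CD24 a surface glycoprotein. The design text of the series takes CD29hiCD24+ cells as adult stem cells in the normal gland and as cancer stem cells in the tumour, and asks how they differ from each other and from their differentiated counterparts. The labels give no ages, no number of mice in a pool and no state of the other Apc allele in the tumours. RNA was amplified in a two-cycle protocol before hybridisation.

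The mammary epithelium is a bilayer of inner luminal cells and outer basal cells, most of which are contractile myoepithelial cells. In the mouse gland, cells with high CD29 are enriched for the basal layer. p63, the product of Trp63, maintains the basal layer of stratified and glandular epithelia and drives its keratins and adhesion proteins. Bcl11a and Bcl11b encode related zinc finger repressors. SOX9 and SOX10 belong to the same branch of the HMG-box family, TBX2 and TBX3 are closely related T-box repressors, and EGR2 is a zinc finger activator that many cells induce within minutes of a growth signal.

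Promoter windows of 300 bases, from 250 bases before to 50 after an annotated start, were at hand for Egr2, Bcl11a and Bcl11b, from RefSeq on build GRCm38.p6. No window was at hand for the other members. These 3 zinc finger genes were all higher in the normal CD29hiCD24+ gate and in tumour CD29+CD24+ cells, as were Trp63, Sox10 and Tbx2. Each window is written 5′ to 3′ on the strand of its gene, and capitals mark the letters of a motif that was searched.
Egr2, chr10:67537619-67537918, plus strand: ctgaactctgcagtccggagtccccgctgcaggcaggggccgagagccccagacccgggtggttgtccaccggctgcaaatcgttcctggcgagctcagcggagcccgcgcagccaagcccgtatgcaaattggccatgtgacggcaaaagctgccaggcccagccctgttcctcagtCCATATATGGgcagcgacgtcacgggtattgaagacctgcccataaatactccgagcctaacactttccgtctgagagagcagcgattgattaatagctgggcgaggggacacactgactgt
Bcl11a, chr11:24080445-24080744, plus strand: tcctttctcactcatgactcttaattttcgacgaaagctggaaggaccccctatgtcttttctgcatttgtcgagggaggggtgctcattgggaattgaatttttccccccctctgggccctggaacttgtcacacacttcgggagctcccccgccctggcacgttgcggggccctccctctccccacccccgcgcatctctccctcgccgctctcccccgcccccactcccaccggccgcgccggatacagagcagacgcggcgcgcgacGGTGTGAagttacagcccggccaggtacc
Bcl11b, chr12:108003365-108003664, minus strand: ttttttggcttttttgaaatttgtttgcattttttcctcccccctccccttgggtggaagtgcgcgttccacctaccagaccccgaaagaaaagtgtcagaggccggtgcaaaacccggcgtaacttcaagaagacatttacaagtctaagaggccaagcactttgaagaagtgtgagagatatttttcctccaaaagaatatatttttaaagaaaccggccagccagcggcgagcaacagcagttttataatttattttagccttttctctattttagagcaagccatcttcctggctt
The capitals in the Egr2 window are a CArG box, the letters that serum response factor reads, 72 bases before the start. Of 32851 windows of this length, 1.63% hold a CArG box. Egr2 had 5 annotated windows. A further one, chr10:67537316-67537615, has another CArG box at the same distance. The windows that begin at 67537620 and 67537680 overlap the printed one and hold the same box. The window chr10:67535249-67535548 held no searched motif. The capitals in the Bcl11a window are the T-box letters GGTGTGA, 22 bases after the start, found in 3.98% of windows. The Bcl11b window held none of the 7 motifs on either strand. The others searched were EGR letters GCGNGGGCG (5.55% of windows), TCF/LEF letters ATCAAAG (3.73%), SOX letters ACAATG (12.6%), BCL11A letters TGACCA (13.6%) and a p53 family half-site (8.36%). The Bcl11b window had a GC content of 43% against 63% for Bcl11a, 60% for the printed Egr2 window and a median of 52.7% over all windows. The other Egr2 windows had 56% to 72%. A match describes letters and is not a binding site.

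All values below are log2 signals or log2 differences, so 1 unit is a doubling. Between 37.2% and 41.6% of an array's values lay at or under 2.83, called the low band, where a level is only known to be low and a difference that starts there is compressed. In normal glands the myoepithelial and basal markers, which include Krt5, Krt14 and Acta2, averaged 12.98 to 13.31 per array in CD29hiCD24+ cells and 3.53 to 3.84 in CD29+CD24+ cells. Luminal markers averaged 8.87 to 11.05 and 12.78 to 13.06 in the same gates. In tumours the myoepithelial and basal markers averaged 7.05 to 10.01 in the CD29hiCD24+ gate and 6.56 to 7.26 in the CD29+CD24+ gate. The luminal markers there averaged 7.5 to 9.17 and 8.72 to 12.15. The tumour means of the myoepithelial and basal list pool unlike members. Krt5 and Krt14 had means of 14.26 and 14.67 in tumour CD29hiCD24+ cells and 13.95 and 14.64 in tumour CD29+CD24+ cells. Their means in normal CD29hiCD24+ cells were 12.86 and 14.35. All other members had lower means in tumour than in normal CD29hiCD24+ cells, such as Cnn1 (5.03 against 12.21) and Acta2 (12.34 against 15.10). The normal CD29hiCD24+ array of pool F stood apart, with a leukocyte marker mean of 8.11, where pool G had 3.16 and pool H 3.12. Its endothelial markers averaged 9.75 against 6.86 and 7.76. Each result from normal CD29hiCD24+ cells was also computed without that array. In sorted bulk samples, fewer cells of a type and less RNA per cell cannot be told apart. Nothing in the labels says whether mice were shared between pools, so p-values measure the spread between these samples.

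In normal glands, 6 of the 8 genes were higher in CD29hiCD24+ than in CD29+CD24+ cells and 0 were lower (limma, Benjamini-Hochberg adjusted p under 0.05 over 13485 genes). At an unadjusted p under 0.05 the counts were the same, 6 and 0. Trp63 led with a log2 difference of 9.32 ± 0.37 (SE; 3 arrays each), followed by Bcl11b, Egr2, Sox10, Tbx2 and Bcl11a. Of all genes tested, 46.6% were called in this comparison, 21.3% as higher and 25.3% as lower. The groups did not overlap for any of the 8 genes, as they did not for 58.2% of all genes. The median difference of the 8 genes was 2.53, against -0.03 over all genes. Sox9 and Tbx3 go against the name of basal factors here, since their mean signals were lower in the CD29hiCD24+ gate, though neither passed the test.

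In the tumours, 0 of the 8 genes differed between the same gates by limma, and 0 at an unadjusted p under 0.05, where 4.19% of all genes were called, 2.25% as higher and 1.94% as lower. The groups overlapped for all 8, while 5.05% of all genes did not overlap. Their median difference was 0.09 and the median of all genes 0.00. The difference between the tumour and the normal contrast was itself tested, and 6 of 8 genes were called, all as smaller in tumours, against 42.0% of all genes called, 22.2% as higher and 19.8% as lower. These were Trp63, Bcl11b, Egr2, Sox10, Tbx2 and Bcl11a. The tumour contrast and this difference share the tumour arrays, so they are not separate evidence.

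Tumour cells were then set against normal cells within each gate. In CD29hiCD24+ cells, 3 of 8 genes were higher in tumours (Bcl11a, Bcl11b and Trp63) and 0 lower, with 38.6% of all genes called, 15.6% as higher and 22.9% as lower. At an unadjusted p under 0.05 the counts were 3 and 1, the latter being Egr2. In CD29+CD24+ cells 6 were higher and 0 lower, against 43.5% of all genes called, 16.4% as higher and 27.1% as lower. In Lin- cells 5 were higher and 0 lower, against 40.6% called, 13.9% as higher and 26.6% as lower. Unadjusted counts were the same in both of these gates. Groups did not overlap for 3, 6 and 5 genes in that order, beside 37.0%, 44.8% and 38.7% of all genes. The medians of the 8 genes were 0.52, 2.64 and 1.72, against -0.01, -0.01 and -0.08 over all genes. These comparisons use the same normal arrays as the normal gate comparison.

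**Figure D1:**
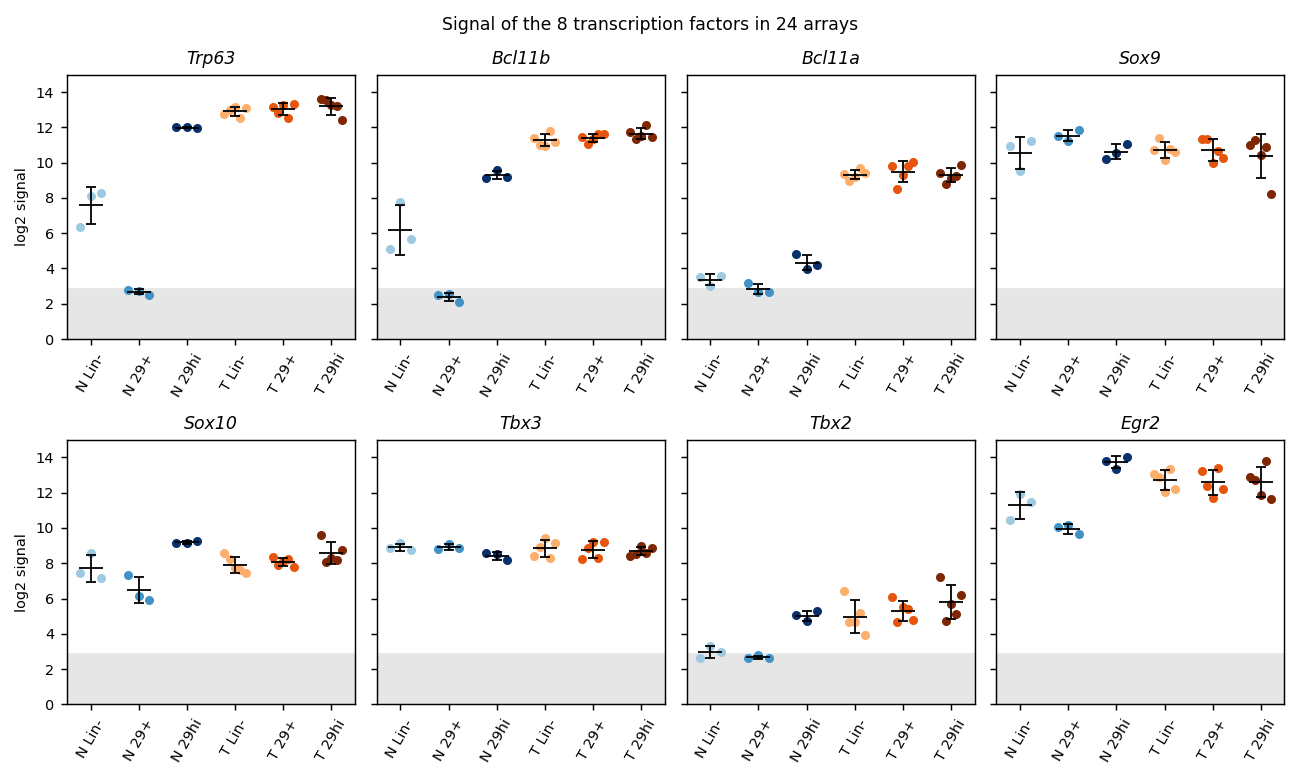
Log2 signal (vertical axis) of the representative probe set of each of the 8 genes in all 24 arrays. N is normal and T tumour, 29+ and 29hi stand for the CD29+CD24+ and CD29hiCD24+ gates, each point is an array, the black dash is the group mean, bars are the SD, and the grey band is the low band under 2.83. Trp63 and Bcl11b go from the low band to high signals between the normal gates and are high in all tumour groups, whereas Sox9 and Tbx3 change little.

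Trp63 showed the widest span. In normal CD29+CD24+ cells its log2 signals were 2.77, 2.74 and 2.52 (pools F, G and H), all in the low band, and in normal CD29hiCD24+ cells they were 12.02, 12.02 and 11.94. Normal Lin- cells lay between, at 6.36, 8.10 and 8.29. In tumours A to E the signals were 13.17, 12.83, 13.27, 12.52 and 13.35 in CD29+CD24+ cells. They were 13.59, 13.55, 13.27, 13.22 and 12.39 in tumour CD29hiCD24+ cells and 12.76, 13.02, 13.17, 12.54 and 13.11 in tumour Lin- cells. Every tumour array thus lay above every normal array, also above the normal basal gate. The 3 tumour groups overlapped one another and the 3 normal groups did not.

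The normal gates differed in Trp63 by 9.32 ± 0.37 (adjusted p = 5.80e-14), the 27th highest difference of 13485 genes. Within a pool the difference was 9.24 (F), 9.29 (G) and 9.42 (H). In tumours it was 0.17 ± 0.28 (95% interval -0.42 to 0.77, adjusted p = 0.845), with pairs from -0.96 in tumour E to 0.72 in tumour B. Tumour over normal, Trp63 was higher by 10.35 ± 0.33 in CD29+CD24+ cells (adjusted p = 1.69e-15), the 8th highest of all genes. It was higher by 5.34 ± 0.33 in Lin- cells (adjusted p = 6.36e-11) and by 1.21 ± 0.33 in CD29hiCD24+ cells (adjusted p = 0.00578).

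Its probe sets differed in the last of these. Another Trp63 probe set also rose in the normal CD29hiCD24+ gate (4.82 ± 0.62, adjusted p = 2.48e-06), but read -0.71 ± 0.56 for tumour over normal in CD29hiCD24+ cells (adjusted p = 0.361). With the mean of the 3 kept probe sets the difference was 0.65 with an adjusted p of 0.0524. The remaining kept probe set was low throughout, between 2.33 and 6.22, but was also higher in tumour than in normal CD29hiCD24+ cells (1.45 ± 0.28, adjusted p = 4.12e-04). It was the only kept probe set of the 8 genes called between the tumour gates, higher in CD29hiCD24+ cells by 0.95 ± 0.24 (adjusted p = 0.0364). Trp63 makes several isoforms from separate promoters and by splicing, and the files do not say which of them each probe set reads.

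Bcl11b, known best for commitment to the T cell lineage, followed Trp63 closely. Normal CD29+CD24+ arrays read 2.49, 2.56 and 2.11, all in the low band, and normal CD29hiCD24+ arrays 9.12, 9.56 and 9.21, with Lin- arrays at 5.09, 7.79 and 5.69. Tumour CD29+CD24+ cells read 11.46, 11.06, 11.33, 11.61 and 11.62, and tumour CD29hiCD24+ cells 11.73, 11.32, 11.52, 12.14 and 11.47. Tumour Lin- cells read 11.38, 11.01, 10.96, 11.81 and 11.18. As with Trp63, the normal groups were apart from one another, the tumour groups overlapped, and the lowest tumour array was above the highest normal one.

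Bcl11b differed between normal gates by 6.91 ± 0.43 (adjusted p = 4.99e-11) and between tumour gates by 0.22 ± 0.33 (95% interval -0.46 to 0.91). It was higher in tumours by 9.03 ± 0.38 in CD29+CD24+ cells (adjusted p = 1.02e-13), the 17th highest of all genes, by 5.08 ± 0.38 in Lin- cells and by 2.34 ± 0.38 in CD29hiCD24+ cells (adjusted p = 5.40e-05). All 4 of its probe sets called it higher in tumours in every gate. In CD29hiCD24+ cells they read 2.34, 2.73, 2.85 and 3.93. Of the 4, 1 did not call the normal gates apart (0.75 ± 0.32, adjusted p = 0.0682). The defining T cell markers on the array that were not kept, Cd3e, Cd3d, Cd3g, Cd2 and Cd8b1, reached at most 2.69 in any array, and the 3 that were kept averaged 2.97 to 3.82 per array over all groups. Of the kept ones, Cd28 reached 5.17 in normal Lin- cells. It was called lower in normal CD29hiCD24+ than in normal Lin- cells (-1.09 ± 0.33) and in tumour than in normal Lin- cells (-1.06 ± 0.30). Cd4 and Cd8a were not called in either comparison. The part of T cells in the Bcl11b result was not tested. Over the 24 arrays, which share the same groups and sorts, Trp63 and Bcl11b correlated at r = 0.980.

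Bcl11a, the paralog known as the repressor of fetal globin and studied in mammary progenitors and triple-negative breast cancer, had another profile. It was low in all normal cells, at 3.16, 2.67 and 2.69 in CD29+CD24+, 3.51, 2.99 and 3.55 in Lin- and 4.81, 3.96 and 4.22 in CD29hiCD24+ arrays. In the tumours it was high in each population, at 9.79, 8.51, 9.31, 9.79 and 10.02 in CD29+CD24+ cells. It read 9.43, 8.77, 9.12, 9.24 and 9.85 in tumour CD29hiCD24+ cells and 9.38, 8.94, 9.20, 9.67 and 9.44 in tumour Lin- cells. The lowest tumour array exceeded the highest normal array by more than the whole spread of either tissue.

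Bcl11a had the largest tumour over normal difference of the 8 genes in CD29hiCD24+ cells, 4.95 ± 0.30 (adjusted p = 7.93e-11, 78th highest of all genes), a fold of 31.0. The difference was 6.64 ± 0.30 in CD29+CD24+ cells (adjusted p = 3.17e-13) and 5.97 ± 0.30 in Lin- cells (adjusted p = 3.64e-12), where it was the largest of the 8. All 4 kept Bcl11a probe sets were higher in tumours in every gate, by 0.64 to 4.95 in CD29hiCD24+ cells. The difference between normal gates was smaller, 1.49 ± 0.34 (adjusted p = 0.00112), and was called by the representative probe set alone. With the mean of the 4 kept probe sets it was 0.54 and not called (adjusted p = 0.139). Between tumour gates it was -0.20 ± 0.26 (95% interval -0.75 to 0.35).

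**Figure D2:**
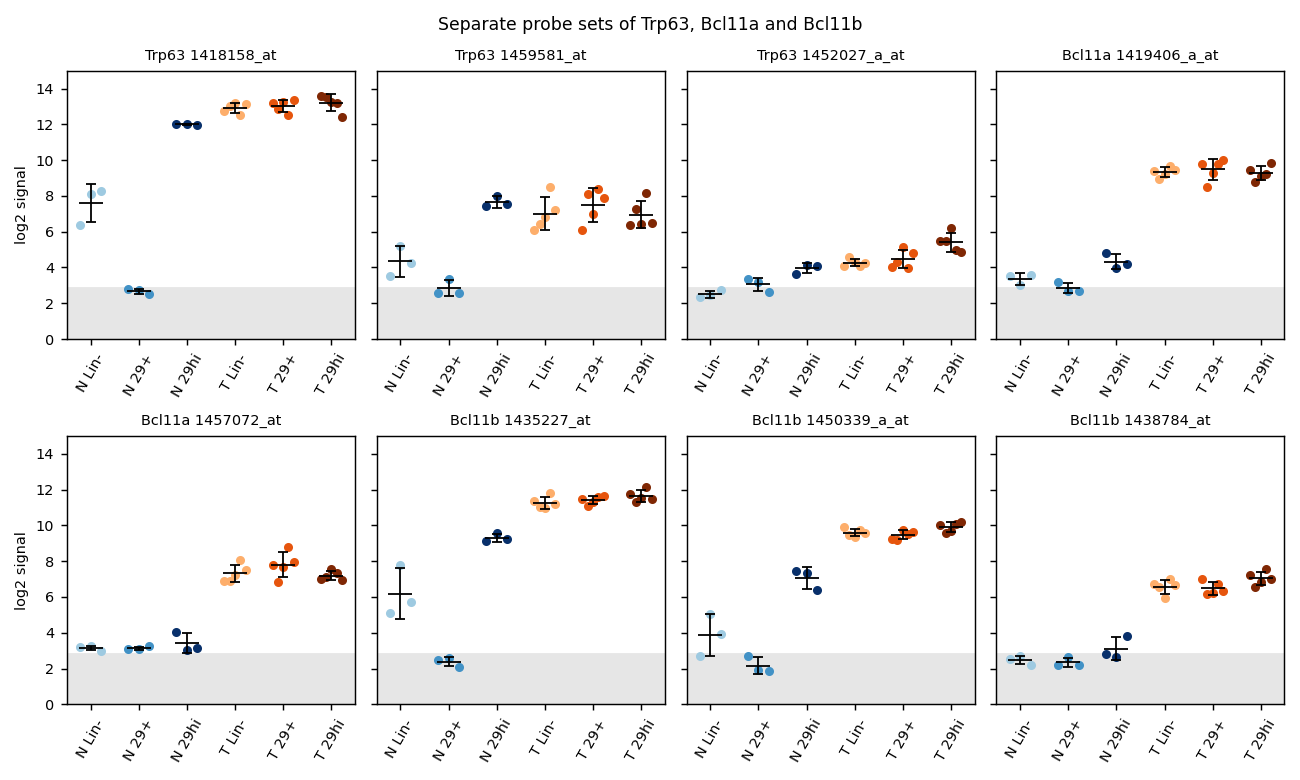
Log2 signal (vertical axis) of 8 kept probe sets of Trp63, Bcl11a and Bcl11b in all 24 arrays. N is normal and T tumour, 29+ and 29hi stand for the CD29+CD24+ and CD29hiCD24+ gates, points are arrays, the dash is the group mean, bars are the SD, and the grey band is the low band under 2.83. The Bcl11a and Bcl11b probe sets shown lie higher in each tumour group than in the normal groups, while the second Trp63 probe set has similar signals in normal and tumour CD29hiCD24+ cells.

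Egr2, an immediate early gene also required for myelination by Schwann cells, was high in every array. It read 10.04, 10.14 and 9.64 in normal CD29+CD24+, 10.46, 11.93 and 11.47 in normal Lin- and 13.82, 13.34 and 14.00 in normal CD29hiCD24+ arrays. Tumour CD29+CD24+ arrays were at 13.23, 12.41, 11.70, 13.40 and 12.19, tumour CD29hiCD24+ arrays at 12.88, 12.70, 11.90, 13.82 and 11.66, and tumour Lin- arrays at 13.07, 12.88, 12.06, 13.36 and 12.20. Tumour D was highest, followed by A and B, in each of the 3 populations, and C and E were lowest.

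Egr2 was higher in the normal CD29hiCD24+ gate by 3.78 ± 0.51 (adjusted p = 3.51e-06), and the difference between tumour gates was 0.01 ± 0.39 (95% interval -0.81 to 0.82). Tumour over normal, it was higher by 2.65 ± 0.45 in CD29+CD24+ cells (adjusted p = 6.69e-05) and by 1.43 ± 0.45 in Lin- cells (adjusted p = 0.0154). The Lin- call was lost without pool F (adjusted p = 0.153). In CD29hiCD24+ cells the difference was -1.13 ± 0.45 and missed the threshold (adjusted p = 0.0546). It was called as lower in tumours without tumour D (-1.44, adjusted p = 0.00718) and with the tumour or pool as a random replicate block (-1.13, adjusted p = 0.0327). The other Egr2 probe set gave the same calls in the 8 comparisons, with 4.15 ± 0.59 between normal gates.

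Sox10, a neural crest and Schwann cell factor that is also made by mammary epithelial cells, read 7.32, 6.16 and 5.92 in normal CD29+CD24+, 7.43, 8.59 and 7.15 in normal Lin- and 9.14, 9.17 and 9.27 in normal CD29hiCD24+ arrays. Tumour arrays were at 8.37, 7.91, 8.14, 8.22 and 7.77 in CD29+CD24+, 9.59, 8.04, 8.31, 8.17 and 8.77 in CD29hiCD24+ and 8.55, 8.25, 7.72, 7.61 and 7.45 in Lin- cells. The normal CD29hiCD24+ group was the tightest of all 6, and only tumour A reached above it.

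The normal gates differed in Sox10 by 2.72 ± 0.42 (adjusted p = 1.69e-05), and tumour CD29+CD24+ cells were above normal ones by 1.61 ± 0.37 (adjusted p = 0.00128). Between tumour gates the difference was 0.49 ± 0.32 (95% interval -0.18 to 1.17). It was -0.61 ± 0.37 for tumour over normal in CD29hiCD24+ cells (95% interval -1.39 to 0.16) and 0.19 ± 0.37 in Lin- cells. The other kept probe set had group means of 3.66 to 4.29 and gave no call. Of the Schwann and glial markers, 7 of 12 were kept, and their array means ran from 5.46 to 6.44. Normal Lin- arrays (6.01 to 6.44) lay above normal CD29+CD24+ arrays (5.75 to 5.99), and normal CD29hiCD24+ arrays (5.76 to 6.09) overlapped both. Single markers moved in both directions between the normal gates, where Sox10 was higher. Pmp22, a myelin gene that other cells express too, was higher by 4.78 ± 0.63, and Erbb3 (-3.82 ± 0.30) and the myelin gene Mbp (-1.02 ± 0.39) were lower. Their part in the Sox10 result was not tested. Cdh19 and Gfap were not kept and the group mean of Foxd3 was in the low band in all 6 groups.

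Sox9, which specifies cartilage and is active in many epithelial progenitors, was present in every array. It read 11.51, 11.24 and 11.87 in normal CD29+CD24+, 10.23, 10.53 and 11.07 in normal CD29hiCD24+ and 10.94, 9.53 and 11.21 in normal Lin- arrays. In tumour CD29hiCD24+ cells it read 11.01, 11.31, 10.41, 10.89 and 8.20, with tumour E far below the others. Tumour CD29+CD24+ arrays spanned 9.96 to 11.37 and tumour Lin- arrays 10.15 to 11.38. The order of the group means ran from 11.54 in normal CD29+CD24+ to 10.37 in tumour CD29hiCD24+ cells, and the ranges of each pair of neighbours in that order overlapped.

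Sox9 passed no test in the 8 comparisons. Between normal gates it was -0.93 ± 0.60 (95% interval -2.18 to 0.31, adjusted p = 0.222), with all 3 pools lower in CD29hiCD24+ cells, with differences from -1.28 to -0.71. It was called as lower when only the groups compared were fitted (adjusted p = 0.0283), and read 0.19 once the actin measure of RNA length given further on was a covariate. Tumour over normal in CD29+CD24+ cells it was -0.83 ± 0.54 (95% interval -1.94 to 0.29). Another probe set had group means of 8.95 to 9.25, and the remaining one lay near 4 in every array.

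Tbx2, a T-box repressor that is amplified in some breast cancers, was low in normal cells. It read 2.60, 2.78 and 2.64 in CD29+CD24+, all in the low band, 2.60, 3.30 and 2.99 in Lin- and 5.06, 4.73 and 5.27 in CD29hiCD24+ arrays. Tumour arrays read 6.07, 4.68, 5.52, 5.42 and 4.80 in CD29+CD24+, 7.24, 4.70, 5.68, 5.15 and 6.21 in CD29hiCD24+ and 6.42, 4.69, 4.69, 5.16 and 3.94 in Lin- cells. Tumour signals were thus spread around those of the normal basal gate, with tumour A highest in each population.

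The normal gates differed in Tbx2 by 2.34 ± 0.55 (adjusted p = 0.00136) and the tumour gates by 0.50 ± 0.43 (95% interval -0.39 to 1.38). The difference between those differences, -1.85 ± 0.69, was called only narrowly (adjusted p = 0.0377). It was lost without tumour B, C or D, without pool F, G or H and without the normal CD29hiCD24+ array of pool F (adjusted p 0.0580 to 0.136). Tbx2 was higher in tumours by 2.63 ± 0.49 in CD29+CD24+ (adjusted p = 1.74e-04) and by 2.01 ± 0.49 in Lin- cells (adjusted p = 0.00232). In CD29hiCD24+ cells it was 0.78 ± 0.49 (95% interval -0.24 to 1.80). A single probe set represents this gene.

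Tbx3, which is required for the embryonic mammary bud and is lost in ulnar-mammary syndrome, varied least. It read 8.81, 9.12 and 8.88 in normal CD29+CD24+, 8.88, 9.13 and 8.74 in normal Lin- and 8.57, 8.50 and 8.17 in normal CD29hiCD24+ arrays. Tumour arrays spanned 8.23 to 9.23 in CD29+CD24+, 8.43 to 8.96 in CD29hiCD24+ and 8.32 to 9.41 in Lin- cells. All group means lay between 8.42 and 8.94, with normal CD29hiCD24+ cells lowest, and neighbours in that order overlapped.

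Between normal gates Tbx3 was -0.52 ± 0.29 (95% interval -1.12 to 0.08, adjusted p = 0.148), and it was lower in CD29hiCD24+ cells of each pool, with differences from -0.71 to -0.24. With the pool as a replicate block it was called lower, with an adjusted p of 0.00916. Another Tbx3 probe set called it lower without the block (-1.17 ± 0.37, adjusted p = 0.0147). Tumour over normal differences were 0.26 ± 0.26 in CD29hiCD24+, -0.17 ± 0.26 in CD29+CD24+ and -0.08 ± 0.26 in Lin- cells. The remaining kept one was called lower in tumour Lin- cells (-1.02 ± 0.38, adjusted p = 0.0437).

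**Figure D3:**
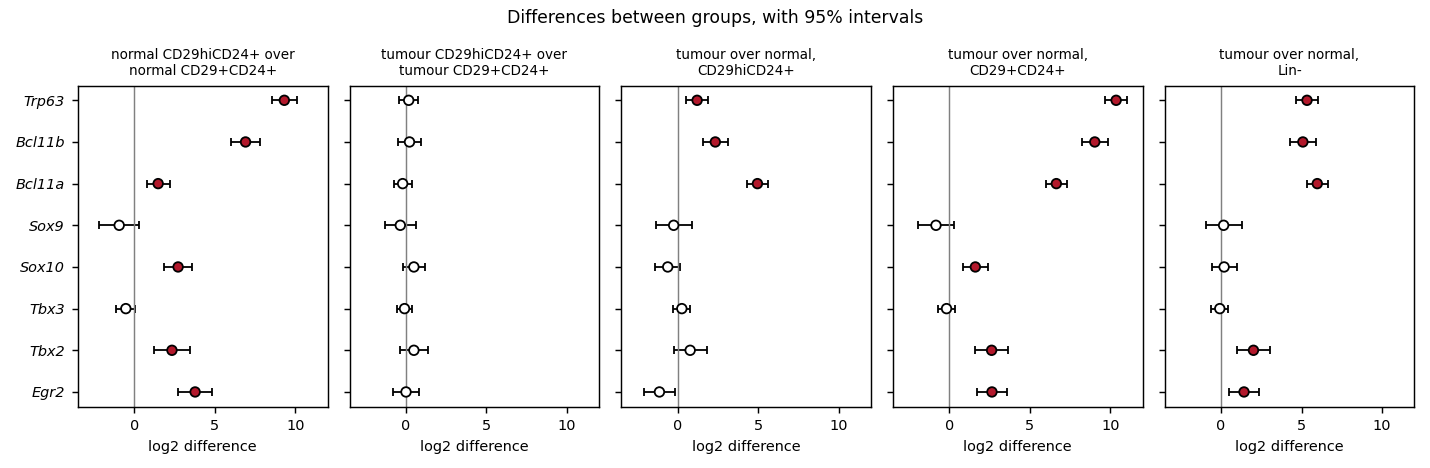
Log2 differences (horizontal axis) of the 8 genes in the comparisons of gates and of tumour with normal, from the fit over 24 arrays. Bars are 95% intervals, red filled points passed the adjusted p threshold of 0.05 and white points did not. No point passed between tumour gates, and Bcl11a, Bcl11b and Trp63 passed in every tumour over normal comparison.

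Set against Lin- cells, the normal CD29hiCD24+ gate was higher for 6 of 8 genes and lower for 0 (unadjusted 6 and 0), against 40.2% of all genes called, 17.0% as higher and 23.2% as lower. The groups did not overlap for 7 of 8, as for 48.9% of all genes. Trp63 differed by 4.41 ± 0.37 (adjusted p = 1.52e-08), the 19th highest difference of all genes, and Bcl11b by 3.11 ± 0.43. Egr2 (2.44 ± 0.51), Tbx2 (2.05 ± 0.55), Sox10 (1.47 ± 0.42) and Bcl11a (0.98 ± 0.34) were called too. This count fell to 3 without pool H, when Trp63, Bcl11b and Egr2 were left, and to 4 without pool F and 5 without pool G. Calls over all genes fell too, from 5420 to 4072, 3491 and 4871 of 13485 in that order. In tumours 0 of 8 genes differed between CD29hiCD24+ and Lin- cells by limma (0 at an unadjusted p under 0.05), with 8.36% of all genes called, 3.74% as higher and 4.63% as lower. The nearest were Sox10 (0.66 ± 0.32, adjusted p = 0.228) and Tbx2 (0.82 ± 0.43, adjusted p = 0.266).

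Other measures moved with these comparisons. The actin 3′ minus 5′ signal, a sign of RNA length, was 1.59, 1.83 and 1.41 in normal CD29+CD24+ and 2.89, 2.49 and 2.20 in normal CD29hiCD24+ arrays. The same measure of Gapdh overlapped between these gates, at 2.22, 2.28 and 2.22 against 2.37, 2.14 and 1.80. With the actin measure as a covariate the same number of genes, 6, was called between normal gates, with Trp63 at 9.68 and Bcl11b at 6.16. Over all genes 4914 of 13485 were called with this covariate, against 6281 without it. Since the actin values of these gates did not overlap, the covariate cannot separate RNA length from the gate. These measures also differed between tissues. Gapdh read 1.78 to 2.02 in tumour and 2.21 to 2.76 in normal Lin- arrays, and overlapped in the other populations. Actin read 1.66 to 2.47 in tumour CD29hiCD24+ arrays, against 2.20 to 2.89 in normal ones. In CD29+CD24+ arrays it read 1.68 to 2.58 against 1.41 to 1.83. The part of RNA length in the tumour over normal results was not tested. Endothelial markers were higher in the normal CD29hiCD24+ gate (7 of 8 kept called), averaging 6.86 to 9.75 per array against 3.25 to 3.45 in CD29+CD24+ cells. Fibroblast markers were called higher for 5 of 9 and lower for 1, averaging 5.22 to 7.15 against 4.05 to 4.35. Of 6 kept pericyte markers 3 were higher, Mcam (5.81 ± 0.84), Pdgfrb (5.05 ± 0.99) and Rgs5 (4.56 ± 1.24), and Notch3 was lower (-3.02 ± 0.41). The pericyte markers averaged 5.88 to 6.51 against 3.77 to 3.98. All 8 endothelial markers were lower in tumour CD29hiCD24+ cells, which averaged 2.85 to 3.83. Cdh5, Cldn5 and Kdr were in the low band there. In the same comparison 6 of 8 myoepithelial and basal markers were lower and 1 higher. The lower ones were Cnn1 (-7.19 ± 0.77), Myh11, Oxtr, Tagln, Mylk and Acta2 (-2.76 ± 0.83). The keratin Krt5 was higher (1.40 ± 0.46), and Krt14 was not called (0.32 ± 0.41). Of 10 luminal markers 4 were lower and 1 higher in this comparison. In tumour over normal CD29+CD24+ cells, where 6 of the 8 factors were higher, 7 of 10 luminal markers were lower and 1 higher (median -3.12). Of 9 fibroblast markers 4 were higher there and 1 lower (median 2.65), with array means of 4.92 to 6.46 against 4.05 to 4.35. The part of these cells in the results was not tested. Without the normal CD29hiCD24+ array of pool F, 6 of the 8 genes were called between normal gates. Over all genes 5460 of 13485 were then called, against 6281 with that array. Without it Trp63 was at 9.30, Bcl11b at 7.0, Egr2 at 3.73, Sox10 at 2.75, Tbx2 at 2.32 and Bcl11a at 1.25.

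Sample numbers in the descriptions fell into 3 ranges, and only tumour E shared a range with the pools. For tumours A to D, range and tissue cannot be told apart. With the range as a block, tumour over normal therefore rested on tumour E against the pools, and only effect sizes are given. In CD29hiCD24+ cells it was 5.36 for Bcl11a, 2.32 for Bcl11b, 1.11 for Trp63 and -1.74 for Egr2. In CD29+CD24+ cells Sox9 read -1.75 with this block, against -0.83 without it, and in Lin- cells Egr2 read 0.81 against 1.43. The blocked Sox9 value carries the level of tumour E over its 3 populations. That level includes the low signal of 8.20 in its CD29hiCD24+ array. The labels do not say what the ranges stand for.

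The genes whose signals followed each factor most closely over the 24 arrays were found by Pearson r, as a description. All points share the 6 groups, so a high r mostly follows the group means. For Trp63 they were Moxd1 (r = 0.994), Emb (0.993) and the basal keratin Krt5 (0.990). For Bcl11b they were Wif1 (0.991), a secreted Wnt inhibitor, Moxd1 (0.986) and Gnai1 (0.984). For Bcl11a they were the carbonic anhydrase Car12 (0.981), the adhesion molecule Chl1 (0.981) and Tmem178 (0.980). For Egr2 they were Simc1 (0.961), Pcdh18 (0.955) and the nuclear receptor Nr4a2 (0.954), and for Tbx2 Lgr6 (0.915), Zfp362 (0.914) and Sertad4 (0.912). The values were lower for Sox10 (Arl3, 0.909; P3h1, 0.907; Itsn1, 0.901), Sox9 (Ywhae, 0.882; Yipf5, 0.864; Hnrnph2, 0.853) and Tbx3 (Mul1, 0.857; Trim47, 0.844; Sema4b, 0.819). Among the factors, Sox9 and Tbx3 had negative r with each of the other 6, from -0.59 to -0.07.

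p63 target and basal adhesion genes were measured for 17 of 21 listed. For this and the following lists, the shares of all genes called in each comparison are those given above. Between normal gates 14 were higher and 1 lower, with a list median of 4.57 against -0.03 over all genes. Highest were the keratins Krt17 (10.73 ± 0.59) and Krt14 (10.38 ± 0.46), and the growth factor receptor Fgfr2 was lower (-1.20 ± 0.18). Between tumour gates 2 were higher and 0 lower (5 and 0 at an unadjusted p under 0.05), the integrins Itgb4 (1.30 ± 0.29) and Itga3 (0.99 ± 0.22), with a median of 0.32. Tumour over normal, 12 were higher and 1 lower in CD29+CD24+ cells, led by Col17a1 (11.14 ± 0.44) and Krt5 (11.04 ± 0.46), and 7 were higher and 2 lower in CD29hiCD24+ cells. In the latter Itgb4 was highest (3.36 ± 0.33), followed by Col17a1 (1.42 ± 0.44), and Krt15 (-4.20 ± 0.87) and Fgfr2 (-1.27 ± 0.16) were lower. In tumour CD29hiCD24+ cells the list thus held called members in both directions.

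Of 20 measured among 22 other basal or stem cell associated transcription factors, 13 were higher and 1 lower between normal gates (median 1.89), led by Snai2 (9.49 ± 0.44) and Id4 (9.47 ± 0.56). The 1 lower was Etv4 (-0.28 ± 0.09). Between tumour gates 0 were called by limma, and 0 were higher and 1 lower at an unadjusted p under 0.05. In CD29+CD24+ cells 12 were higher and 3 lower in tumours. In CD29hiCD24+ cells 0 were higher and 15 lower in tumours (1 and 15 unadjusted), with a median of -1.07 against -0.01 over all genes, among them Tcf7l1 (-2.05 ± 0.21), a repressor of Wnt targets, and Runx1 (-1.70 ± 0.54). Bcl11a, Bcl11b and Trp63 were higher in the same comparison.

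Luminal transcription factors were measured for all 18 listed, and 12 were lower and 3 higher in the normal CD29hiCD24+ gate, with a median of -3.00. Lowest were Cited1 (-5.04 ± 1.07) and Ehf (-4.44 ± 0.64), and highest Tfap2c (3.55 ± 0.28) and Cebpb (2.92 ± 0.31). Between tumour gates 3 were lower and 0 higher (5 and 0 unadjusted): Elf5, a driver of the alveolar lineage (-2.88 ± 0.73), the progesterone receptor Pgr (-2.15 ± 0.50) and Grhl1 (-1.30 ± 0.33). In tumour over normal CD29hiCD24+ cells 8 were lower and 3 higher, with Pgr (-4.00 ± 0.58) and Esr1, the oestrogen receptor (-3.52 ± 1.26), lowest and Ehf (6.35 ± 0.58) and Ovol1 (5.64 ± 0.48) highest. Of all genes 22.9% were called lower and 15.6% higher there.

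Close relatives of the 8 genes were measured for 6 of 13 listed. Between normal gates 2 were higher and 0 lower, where 21.3% of all genes were called higher and 25.3% lower. Egr3, the paralog of Egr2 (4.33 ± 0.32), and Sox8, which shares a branch with Sox9 and Sox10 (1.17 ± 0.15), were higher in the normal CD29hiCD24+ gate. Trp73, the paralog of Trp63, was called between tumour gates (1.57 ± 0.35, adjusted p = 0.0147) and higher in tumour than in normal CD29hiCD24+ cells (2.10 ± 0.41), but read 0.04 ± 0.45 between normal gates. The gate difference of Trp73 was larger in tumours than in normal glands by 1.53 ± 0.57 (adjusted p = 0.0368), the opposite sign to Trp63.

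Egr2 is 1 of the immediate early genes, and all 20 others listed were measured. Between normal gates 8 were higher and 7 lower, with Nr4a2 (5.90 ± 0.68) and Egr3 (4.33 ± 0.32) highest and Btg2 (-1.87 ± 0.46) and Nab2, a corepressor of EGR proteins (-1.69 ± 0.45), lowest, and a list median of -0.23. Between tumour gates 0 were called by limma (0 higher and 1 lower unadjusted). In CD29hiCD24+ cells 7 were higher and 1 lower in tumours, with Fosb (1.96 ± 0.37) and Nr4a1 (1.60 ± 0.38) highest and Myc lower (-2.13 ± 0.44), while Egr2 was not called. Members of the list thus moved in both directions between the normal gates.

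Cell cycle inhibitors and other genes that Tbx2 or Tbx3 can repress were measured for 5 of 6 listed. In tumour over normal CD29hiCD24+ cells 2 were higher and 0 lower (3 and 0 unadjusted), Cdkn2b (4.52 ± 0.48) and Cdkn1a (0.80 ± 0.17). In CD29+CD24+ cells 3 were higher and 0 lower (unadjusted 3 and 0), Cdkn2b, Cdkn1a and Ndrg1, in the comparison where Tbx2 was higher by 2.63. Between normal gates Cdkn1a (1.52 ± 0.19) and Ndrg1 (0.70 ± 0.20) were higher, and Cdkn2b (-2.27 ± 0.54) and Cdh1 (-0.78 ± 0.16) lower.

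SOX9 chondrocyte targets and partners were measured for 9 of 13 listed. Between normal gates 5 were higher and 0 lower (7 and 1 unadjusted), with the cartilage collagen genes Col9a3 (6.31 ± 0.82) and Col11a1 (5.11 ± 1.12) highest, in the comparison where Sox9 read -0.93. In CD29hiCD24+ cells 5 were lower and 0 higher in tumours (unadjusted 5 and 0), led by Col9a2 (-3.74 ± 0.33) and Col11a1 (-3.56 ± 1.0). In CD29+CD24+ cells 2 were higher in tumours, Col9a3 (6.52 ± 0.73) and Col11a1 (2.66 ± 1.0), and the SOX9 partner gene Sox6 was lower (-1.24 ± 0.18). In Lin- cells Col9a3 was higher (3.32 ± 0.73) and Sox6 lower (-1.11 ± 0.18). Acan, Col2a1, Col11a2 and Matn1, which define cartilage, were not kept and reached at most 2.58.

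**Figure D4:**
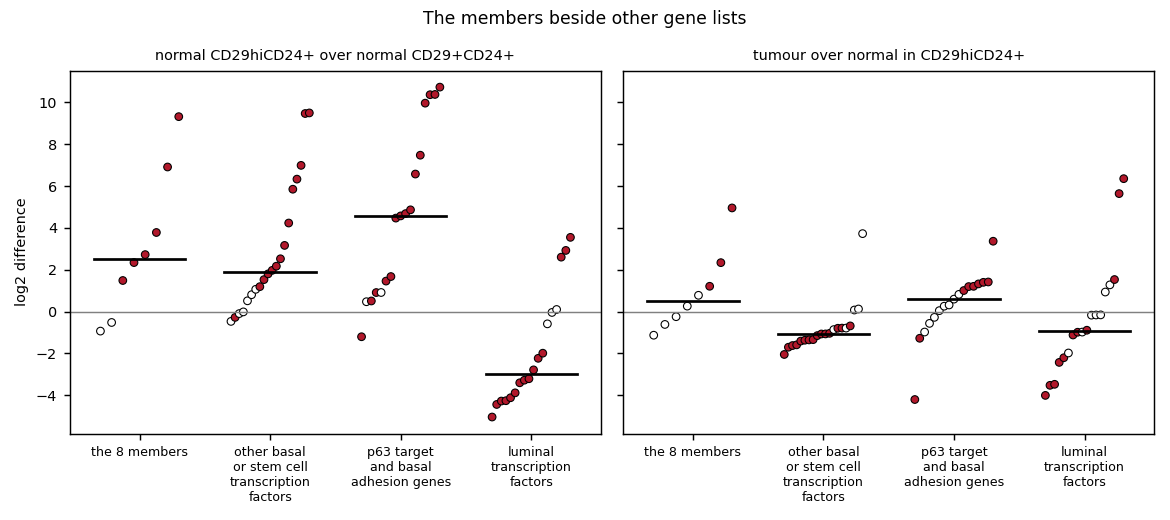
Log2 differences (vertical axis) of the 8 factors and of the measured genes of 3 lists (points), with the median of each (black line), between normal gates on the left and for tumour over normal in CD29hiCD24+ cells on the right. Red filled points were called at an adjusted p under 0.05 and white points were not. The p63 target list has a median of 4.57 on the left, and the other basal or stem cell factors have a median of -1.07 on the right.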

How the data were processed

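Expression was measured on 24 arrays, and the deposited values are log2 signals per probe set that the authors had background-corrected, normalised and summarised; per the submitters' processing notes RMA, GCRMA and Partek were used, whose role, order and version were not given in the sources used here. Deposited values ran from 0.489 to 16.06, which shows a log2 scale.

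Of 45101 probe sets, 34945 had 1 gene name, 932 several, 9160 none and 64 were controls; 34741 matched a RefSeq gene identifier, with 0 symbols changed. Probe sets over 2.83 (the 40th percentile) in at least 3 arrays were kept (24278), and the one with the highest mean stood for its gene (13485 genes). limma 3.58.1 in R 4.3.3 fitted 1 mean per group over all arrays, with eBayes and a variance trend, tested on simulated data. The threshold for a call was 0.05 after Benjamini-Hochberg adjustment. The number of arrays limits the precision. Alternatives were no filter, quantile normalisation, mean of probe sets, blocks, an actin covariate, no trend, only the groups compared, and leaving out each replicate.

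2 titles of the third pool lack a letter and were taken as H. The letters pair the populations of a tumour or pool by these titles. After subtraction of the group means, the arrays of 1 tumour had a median r of 0.578 (15 pairs) against -0.167 (60 pairs of different tumours), and arrays of a pool at 0.142 (9 pairs) against -0.071 (18 pairs). The 8 genes and the gene lists were chosen with earlier results of these data known. List genes were named by rule, up to 2 called genes with the highest and the lowest difference, and followed genes as the 3 with the highest r.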

Additional observations from a re-analysis of the deposited data

Results flagged for a closer look

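The signal of Sox9 in the tumour CD29hiCD24+ array of tumour E, 8.20, lay far below the other 4 arrays of that group, which ran from 10.41 to 11.31. It was the only such value among 24 combinations of gene and tumour group, each of 5 arrays, and chance gives about 1 in 20. The gap made up 0.711 of the range of the group, just past the limit of 0.71. Another well expressed Sox9 probe set was also lowest in that array, at 8.43, but without such a gap, since the other arrays ran from 8.59 to 9.85. That array also had the lowest myoepithelial and basal marker mean of its group, 7.05 against 9.17 to 10.01, and the lowest Trp63 signal, 12.39. Its actin 3′ minus 5′ signal was the highest of the group, 2.47 against 1.66 to 2.13, as was that of Gapdh, 2.21 against 1.73 to 1.87. Without tumour E the Sox9 difference between tumour gates was 0.075 in place of -0.35, with no call either way. The part of these measures in the Sox9 value was not tested.

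For 6 of the 8 genes the difference between CD29hiCD24+ and CD29+CD24+ cells itself differed between tumours and normal glands, by the interaction term of the fit. It was -9.14 for Trp63 (adjusted p = 7.99e-12), -6.69 for Bcl11b (adjusted p = 7.47e-09) and -3.77 for Egr2 (adjusted p = 9.39e-05). It was -2.23 for Sox10 (adjusted p = 0.00191), -1.85 for Tbx2 (adjusted p = 0.0377) and -1.69 for Bcl11a (adjusted p = 0.00349). The Tbx2 call was lost without tumour B, C or D and without pool F, G or H. For Bcl11a the normal gate difference was called by the representative probe set alone, and not with the mean of its kept probe sets.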

How the results depend on the processing

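The counts of called genes among the 8 stayed within 1.5 times under every alternative run, except CD29hiCD24+ over Lin- in normal glands, which ran from 3 (without pool H) to 6 when a replicate was left out. Settings that turned a direction did so only for differences that were not called, and the cause was not tested. After quantile normalisation, which moved the median of all genes in the CD29hiCD24+ over CD29+CD24+ difference of tumours minus that of normal glands from 0.04 to 0.16, these were Tbx3 between tumour gates (0.011) and in tumour over normal Lin- cells (0.017), and Sox9 in tumour over normal CD29hiCD24+ cells (0.025). They were also Sox9 in normal CD29hiCD24+ over Lin- cells (-0.015) and Bcl11a in tumour CD29hiCD24+ over Lin- cells (0.089). With the actin covariate they were Sox9 between normal gates (0.19) and in the gate difference of tumours minus that of normal glands (-0.57). With the mean of a gene's probe sets they were Tbx3 in tumour over normal CD29hiCD24+ cells (-0.070) and Sox9 in normal CD29hiCD24+ over Lin- cells (-0.090). With the description-number block they were Tbx3 in tumour over normal CD29+CD24+ (0.16) and Lin- cells (0.25), and in Lin- cells also Sox9 (-0.76) and Sox10 (-0.0016). Tumour over normal rested on tumour E against the pools in that setting.

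With 1 replicate left out at a time, differences between tumour gates ran from -0.55 to 0.075 for Sox9 and from -0.10 to 0.14 for Egr2. Tumour over normal, Sox9 ran from -0.48 to 0.30 in CD29hiCD24+ cells. In Lin- cells it ran from -0.35 to 0.49 for Sox9, from -0.10 to 0.62 for Sox10 and from -0.22 to 0.051 for Tbx3. For CD29hiCD24+ over Lin- cells Sox9 ran from -0.43 to 0.43 in normal glands and from -0.52 to 0.15 in tumours, and Bcl11a from -0.16 to 0.053 in tumours.

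With the replicate block, 7 of the 8 genes were called between normal gates, 4 in tumour over normal CD29hiCD24+ cells and 7 in normal CD29hiCD24+ over Lin- cells, against 6, 3 and 6. Of all 13485 genes, 7282, 5244 and 6573 were called with the block, against 6281, 5199 and 5420. The added calls among the 8 were Tbx3, Egr2 and Tbx3, and no other call among the 8 genes changed. Over all genes the count called between tumour gates moved most, from 565 to 2080 with the replicate block, 1263 with the description-number block and 149 with only the groups compared, and to 297 without tumour A, 207 without B, 340 without C, 245 without E and 371 without pool H. For CD29hiCD24+ over Lin- cells in tumours it went from 1128 to 2531, 1876 and 465 in that order, and to 745 without B, 684 without C and 469 without E. Signals in the low band, as of Trp63, Bcl11b and Tbx2 in normal CD29+CD24+ cells, limit how large a difference can be read.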
